A study of Mus musculus with 6 samples.

Results

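The genes of the interleukin 1 system and of the inflammasome were compared between dendritic cells that carried the surface protein Ly6G (Ly6G+ DC) and those that did not (Ly6G- DC). The members were 10 genes: the cytokines Il1a, Il1b and Il18, the antagonist Il1rn, the receptor chains Il1r1, Il1r2 and Il1rap, and the inflammasome genes Nlrp3, Pycard and Casp1. Every probe set that the platform annotation assigns to 1 of these symbols and no other was taken, which gave 19 of the 45101 probe sets on the Affymetrix Mouse Genome 430 2.0 array. All samples came from bone marrow cells of C57BL/6 mice grown in 10 ng/ml GM-CSF, a growth factor that yields dendritic cells in culture, and on day 6 cells positive for CD11c and MHC class II were sorted into Ly6G+ DC (3 arrays) and Ly6G- DC (3 arrays), numbered 1 to 3 in each group. Per the labels, cells with and without Ly6G were taken in 1 sort from shared cultures. Which arrays belong to 1 culture, and whether the 3 samples of a group are independent cultures, is not stated, so the p-values reflect only how these samples vary, and that variation may be technical. GM-CSF cultures can hold several myeloid cell types, and Ly6G itself, a surface protein typical of neutrophils, is not analysed here.

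Interleukin 1 alpha and interleukin 1 beta are ligands of the same receptor, in which the chain Il1r1 binds the ligand and Il1rap joins it to signal. Il1rn encodes a secreted antagonist that occupies Il1r1 without signalling, and Il1r2 encodes a decoy receptor that binds the ligand but lacks a signalling domain. Interleukin 1 beta and interleukin 18 are made as inactive precursors, which caspase-1 (Casp1) cleaves after the sensor Nlrp3 and the adaptor Pycard have assembled into an inflammasome. Neutrophils, monocytes, macrophages and dendritic cells are all known to express parts of this system.

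The deposited values are MAS5 signal intensities, 1 per probe set and array, which the authors scaled to a common trimmed mean. Median signals were 56.0 to 82.4 on the Ly6G+ arrays and 79.8 to 90.8 on the Ly6G- arrays. The arrays fell into 2 sides by their hybridization controls, transcripts spiked in before hybridization. The geometric mean of these controls was 1529 to 2039 on Ly6G+ DC 1, Ly6G+ DC 3 and Ly6G- DC 1 (the low side), and on Ly6G+ DC 2, Ly6G- DC 2 and Ly6G- DC 3 (the high side) it was 6688 to 12842. The 3'/5' ratio of Actb, a measure of transcript integrity and of labelling, was 1.17 to 1.49 on the former 3 arrays and 3.98 to 6.85 on the latter 3. The sides cut across the sorted groups, so the main results are also given with the side as a block in the fit and within each side. Of the dendritic cell markers, 20 of 20 were measured, and the genes of the sort markers, Itgax, H2-Aa, H2-Ab1 and H2-Eb1, were among them.

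The 2 interleukin 1 ligands, the antagonist and the decoy receptor had the largest differences of the 9 genes tested, all positive, with log2 fold changes between 1.22 and 2.03 (Ly6G+ DC over Ly6G- DC, on the log2(signal + 16) scale used throughout, which understates differences of dim probe sets). The inflammasome genes and Il18 had log2 fold changes between 0.24 and 0.57. Il1r1 was dim on every array. None of these differences passed the test across all probe sets: limma called 0 of 28254 probe sets at an adjusted p under 0.05 (0%), and 0 of the 15 member probe sets that were tested, whose smallest adjusted p was 0.836. At an unadjusted p under 0.05 there were 5 of 15 member probe sets, all of them higher in Ly6G+ DC (Il1a, Il1b, Il1r2 and 2 of Il1rn), against 2.75% of all probe sets that were higher and 2.87% that were lower. Signals did not overlap between groups for 5 of 15 member probe sets, all higher in Ly6G+ DC (Il1a, Il1r2, Casp1 and 1 each of Il1rn and Pycard), against 4.49% of all probe sets that were higher and 7.24% that were lower. The median log2 fold change was 0.53 over the 15 member probe sets and -0.06 over all 28254. The positive values numbered 13 of 15, against 45.0% of all probe sets, and 14 after quantile normalization and 15 after scaling the arrays to equal medians, which shifts the median of all probe sets from -0.06 to 0.23. The samples are bulk RNA, so a larger share of cells that express a gene and more RNA per cell cannot be told apart.

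**Figure D1:**
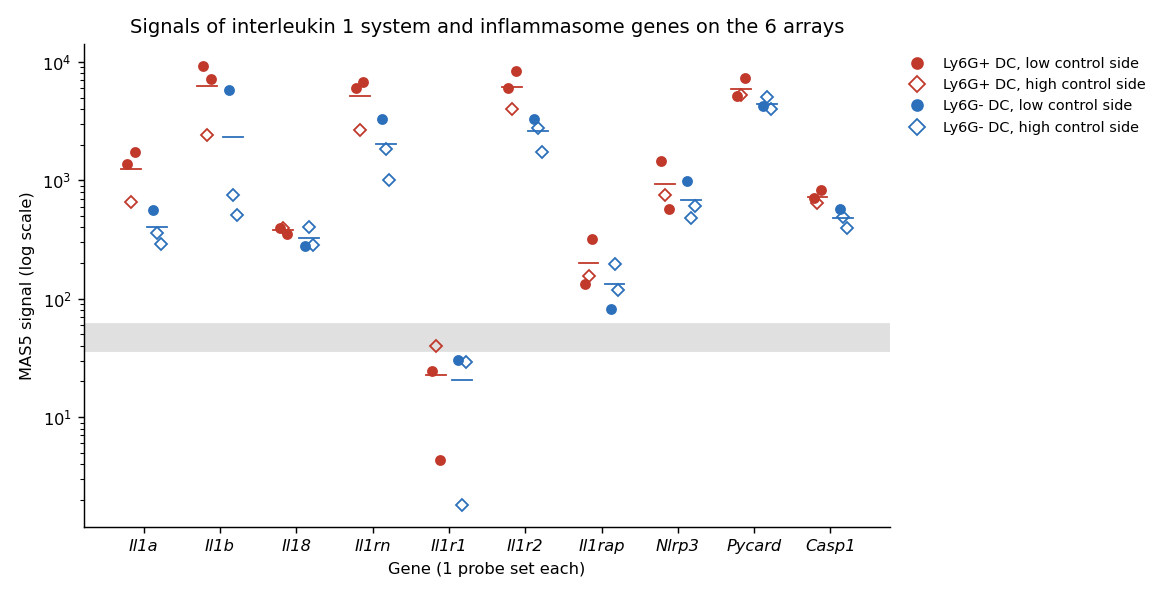
Signal (log scale) of 1 probe set per gene on each of the 6 arrays, the brightest tested probe set or, for Il1r1, the brighter of its 2 dim ones. Red marks are Ly6G+ DC and blue marks Ly6G- DC, filled circles are arrays on the low and open diamonds arrays on the high side, horizontal lines are group means, and the grey band spans the 40th percentiles of the 6 arrays. The red points lie above all blue points for Il1a, Il1r2, Pycard and Casp1, and Il1r1 lies below the grey band except for 1 Ly6G+ array at 39.6, which is under its own array's 40th percentile of 56.8.

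Il1a, the ligand that is active as a precursor and can act from the cell surface or from dying cells, separated the groups. Its signal was 1384, 655 and 1731 on Ly6G+ DC 1, 2 and 3 and 567, 362 and 289 on Ly6G- DC 1, 2 and 3. Every Ly6G+ array lay above every Ly6G- array, although Ly6G+ DC 2 was close to Ly6G- DC 1. The means were 1256 ± 549 and 406 ± 144 (SD, n = 3), and the log2 fold change was 1.54 ± 0.41 (SE; limma, unadjusted p = 0.00367, adjusted p = 0.836). With the control side as a block it was 1.20 ± 0.27, and it was 1.42 within the low and 0.98 within the high side.

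Il1b, the main secreted ligand of activated myeloid cells, had the largest fold change of the members and, with each gene taken by its brightest probe set, the largest SE. Its signal was 9265, 2409 and 7137 on Ly6G+ DC 1, 2 and 3 and 5765, 756 and 513 on Ly6G- DC 1, 2 and 3. The groups overlapped, because Ly6G- DC 1 was brighter than Ly6G+ DC 2, and the 3 brightest arrays were the 3 of the low side. The means were 6271 ± 3509 and 2344 ± 2964 (SD, n = 3), with a log2 fold change of 2.03 ± 0.81 (SE; limma, unadjusted p = 0.0311, adjusted p = 0.836). Within each side the Ly6G+ arrays were above the Ly6G- arrays, by a log2 fold change of 0.50 within the low and 1.93 within the high side, and with the side as a block the value was 1.21 ± 0.33. In Ly6G- DC the low side array exceeded the mean of the 2 high side arrays by 3.18 on the log2 scale, where the median of all tested probe sets was -0.01. In Ly6G+ DC the 2 low side arrays exceeded the high side array by 1.75, against a median of -0.15. The difference between sides within Ly6G- DC was thus larger than the fold change between the sorted groups. What the hybridization controls and the 3'/5' ratio, which move with it, contribute to Il1b was not tested. Without Ly6G- DC 1 the log2 fold change of Il1b was 3.09, with an adjusted p of 0.0527 by limma, and without Ly6G- DC 3 it was 1.37.

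The sequences before the start sites of Il1a and Il1b are shown because these 2 genes, which lie close together on mouse chromosome 2, had their highest and lowest signals on similar arrays. They are the 250 bases before the RefSeq start, 5′ to 3′ on the minus strand of GRCm38.p6, at chr2:129309973-129310222 for Il1a and chr2:129371140-129371389 for Il1b. Capitals mark the TATA motif, TATAAA, searched on both strands, which begins 32 bases before the start of Il1a and 31 bases before that of Il1b.
Il1a: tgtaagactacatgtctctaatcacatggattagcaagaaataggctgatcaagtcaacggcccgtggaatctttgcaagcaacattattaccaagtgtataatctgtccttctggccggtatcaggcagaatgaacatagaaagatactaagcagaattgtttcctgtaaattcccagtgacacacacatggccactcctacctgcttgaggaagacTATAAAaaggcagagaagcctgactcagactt
Il1b: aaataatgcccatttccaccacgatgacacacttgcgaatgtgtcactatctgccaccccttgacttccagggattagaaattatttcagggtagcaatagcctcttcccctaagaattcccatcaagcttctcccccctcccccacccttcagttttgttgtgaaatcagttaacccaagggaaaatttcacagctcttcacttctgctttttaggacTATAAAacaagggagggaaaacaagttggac
TATAAA occurs in 12.4% of the 32851 RefSeq windows of this length, and among the 10 members it was found in the windows of Il1a, Il1b and Il18. The match of Il18 lies on the opposite strand, 175 bases before the start, unlike those of Il1a and Il1b. The NF-kB motif, here GGG, any 5 bases and then CC, searched on both strands, was found in neither of the 2 windows printed, and it occurs in 45.8% of all windows. It was found before at least 1 start site of 5 members: Il1rn, Il1r1, Il1rap, Nlrp3 and Casp1. The 10 members have 14 start sites, so this count of genes cannot be set directly against the share of windows. A match is a string of letters and no evidence of binding, and a missing match is no evidence that binding is absent.

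Il18, the other cytokine that caspase-1 matures, differed little. Its signal was 399, 395 and 349 on Ly6G+ DC 1, 2 and 3 and 281, 403 and 286 on Ly6G- DC 1, 2 and 3. Ly6G- DC 2 was the highest of the 6 arrays, so the groups overlapped. The log2 fold change was 0.24 ± 0.30 (SE), with an adjusted p of 0.892 by limma.

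Il1rn, the receptor antagonist, was measured by 3 probe sets, all with positive log2 fold changes. The brightest, 1451798_at, had signals of 6081, 2672 and 6826 on Ly6G+ DC 1, 2 and 3 and 3271, 1846 and 1013 on Ly6G- DC 1, 2 and 3. Ly6G- DC 1 lay above Ly6G+ DC 2, and within each side the Ly6G+ arrays were higher. Its log2 fold change was 1.39 ± 0.49 (SE; limma, unadjusted p = 0.0170, adjusted p = 0.836), with 0.97 on the low side, 0.96 on the high side and 0.97 ± 0.27 with the side as a block. The second, 1425663_at, had signals of 2306, 1755 and 2434 on Ly6G+ DC 1, 2 and 3 and 1414, 1297 and 569 on Ly6G- DC 1, 2 and 3, with no overlap between groups and a log2 fold change of 1.07 ± 0.38. The third, 1423017_a_at, had 4731, 717 and 2982 on Ly6G+ DC 1, 2 and 3 and 2833, 282 and 235 on Ly6G- DC 1, 2 and 3, with a log2 fold change of 1.87 ± 0.91.

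The 3 Il1rn probe sets differed in how far they moved between the sides of the hybridization controls. In Ly6G- DC the low side array exceeded the high side arrays by 0.71 (1425663_at), 1.25 (1451798_at) and 3.38 (1423017_a_at) on the log2 scale, and in Ly6G+ DC by 0.43, 1.26 and 2.36. The probe set with the strongest dependence on the side had the largest pooled fold change. With the side as a block the 3 probe sets gave closer values, 0.88 ± 0.32, 0.97 ± 0.27 and 0.91 ± 0.31 (SE). Il1b behaved like 1423017_a_at in this respect. The parts of the transcripts that the probe sets cover are not analysed here.

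**Figure D2:**
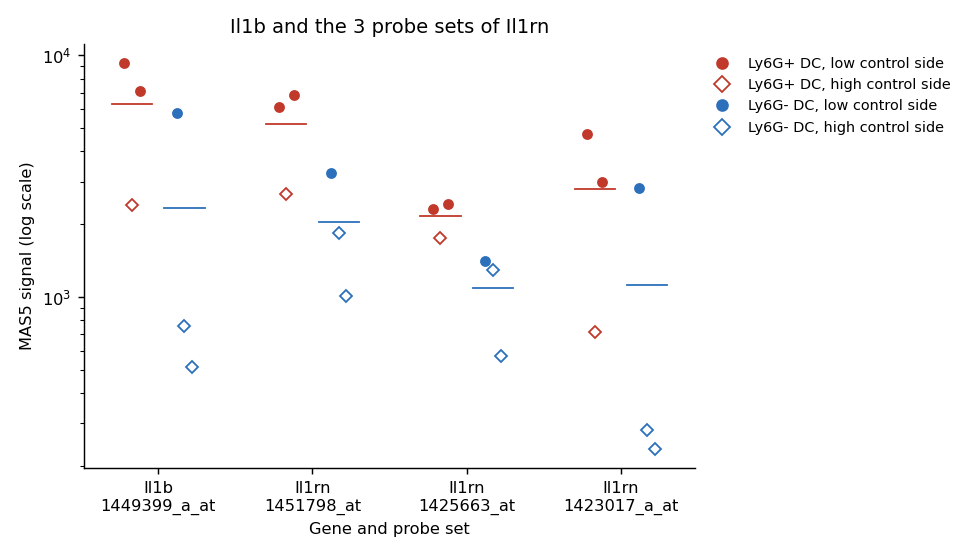
Signal (log scale) of Il1b and of each Il1rn probe set on the 6 arrays, with the same marks as in the plot of all genes. For Il1b and for Il1rn 1423017_a_at the filled circles of Ly6G- DC 1 (5765 and 2833) lie among the red points, far above the open blue diamonds (513 to 756 and 235 to 282), whereas for Il1rn 1425663_at all red points lie above all blue points.

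The start site of Il1rn that lies farthest along chromosome 2 is shown because it holds the NF-kB motif, which the windows of Il1a and Il1b lack. It is the 250 bases before that start on the plus strand of GRCm38.p6, chr2:24345121-24345370, with the match to that motif in capitals, beginning 51 bases before the start.
Il1rn: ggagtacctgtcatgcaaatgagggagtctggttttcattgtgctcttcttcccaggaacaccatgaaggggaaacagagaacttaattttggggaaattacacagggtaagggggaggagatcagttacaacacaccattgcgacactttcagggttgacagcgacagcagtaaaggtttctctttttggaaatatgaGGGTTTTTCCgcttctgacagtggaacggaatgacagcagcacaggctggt
RefSeq gives 3 start sites for Il1rn, and the motif was found before 2 of them. Which start was used in these cells is not analysed here.

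Among the receptor chains the decoy Il1r2 separated the groups. Its signal was 6039, 4032 and 8358 on Ly6G+ DC 1, 2 and 3 and 3301, 2778 and 1738 on Ly6G- DC 1, 2 and 3, so that every Ly6G+ array exceeded every Ly6G- array. The means were 6143 ± 2165 and 2606 ± 796 (SD, n = 3), with a log2 fold change of 1.22 ± 0.38 (SE; limma, unadjusted p = 0.00892, adjusted p = 0.836). The value was 1.10 within the low side, 0.87 within the high side and 0.99 ± 0.27 with the side as a block.

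The signalling receptor Il1r1 was not above the 40th percentile of any array with either of its probe sets. Probe set 1459777_at read 24.6, 39.6 and 4.32 on Ly6G+ DC 1, 2 and 3 and 30.6, 1.82 and 29.1 on Ly6G- DC 1, 2 and 3, and 1448950_at read 6.43 to 22.2 over all 6 arrays. The 40th percentiles were 36.0 to 61.7, so Il1r1 was left out of the test and no fold change is given. It is not shown to be absent.

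Il1rap, the shared accessory chain, was measured by 5 probe sets, 3 of which were tested, and they did not move together. The brightest, 1421844_at, read 134, 155 and 317 on Ly6G+ DC 1, 2 and 3 and 82.6, 197 and 119 on Ly6G- DC 1, 2 and 3. These overlapped, with a log2 fold change of 0.53 ± 0.44 (SE) and an adjusted p of 0.859 by limma, and the value was 0.18 without Ly6G+ DC 3. The others tested, 1421843_at and 1442614_at, had 0.37 ± 0.35 and -0.18 ± 0.56, the latter passing the filter on 3 arrays only. Of the 2 left out as dim, 1449585_at read 45.7 to 95.9 on the Ly6G+ and 10.1 to 38.8 on the Ly6G- arrays, and 1439697_at read 7.39 to 46.4 and 8.28 to 67.6.

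With each gene taken by its brightest probe set, the inflammasome genes had small positive differences, those of Nlrp3 and Pycard near the size of their SE. Nlrp3, the sensor, read 1459, 756 and 573 on Ly6G+ DC 1, 2 and 3 and 982, 480 and 602 on Ly6G- DC 1, 2 and 3. The groups overlapped and the order of the arrays did not follow the sort, with both arrays numbered 1 the highest. The log2 fold change of Nlrp3 was 0.38 ± 0.41 (SE; limma, adjusted p = 0.881), with -0.10 within the low and 0.48 within the high side, and it was 0.001 without Ly6G+ DC 1.

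Pycard, the adaptor also called ASC, read 5159, 5299 and 7298 on Ly6G+ DC 1, 2 and 3 and 4258, 5065 and 3985 on Ly6G- DC 1, 2 and 3 with its brightest probe set. The groups did not overlap, but the gap between Ly6G+ DC 1 and Ly6G- DC 2 was small, and the log2 fold change was 0.40 ± 0.31 (SE; limma, adjusted p = 0.852). Its 2 dimmer probe sets overlapped between groups, with log2 fold changes of -0.29 ± 0.50 (1417347_at) and 0.37 ± 0.45 (1446926_at). Casp1, the protease, read 708, 645 and 828 on Ly6G+ DC 1, 2 and 3 and 568, 489 and 399 on Ly6G- DC 1, 2 and 3. All Ly6G+ arrays were above all Ly6G- arrays, with means of 727 ± 93.2 and 486 ± 84.5 (SD, n = 3) and a log2 fold change of 0.57 ± 0.29 (SE; limma, unadjusted p = 0.0743, adjusted p = 0.836). Within the sides Casp1 had 0.42 (low) and 0.53 (high), close to the pooled value.

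**Figure D3:**
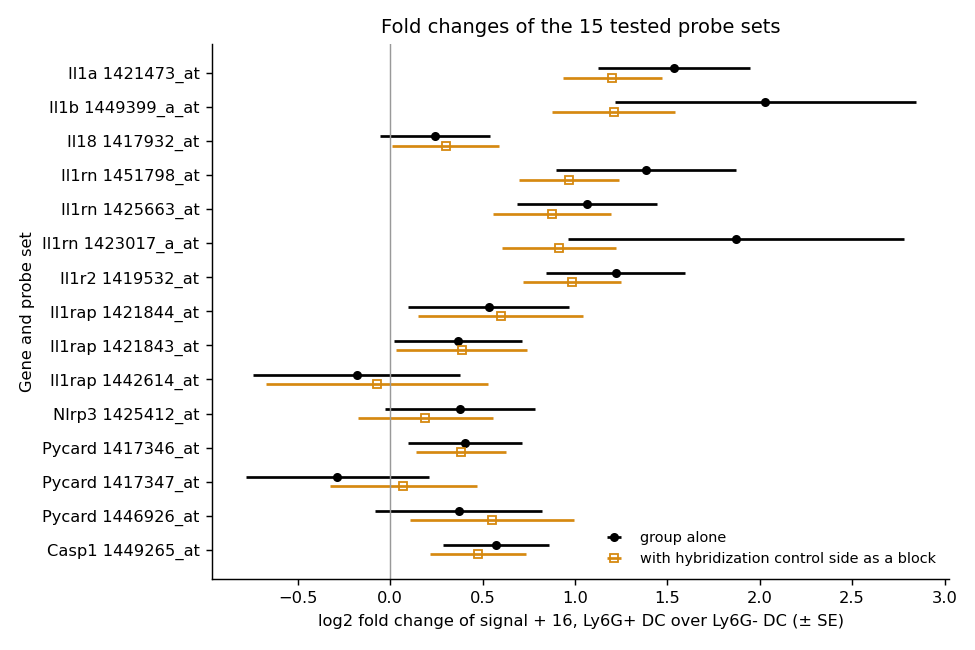
log2 fold change of signal + 16, Ly6G+ DC over Ly6G- DC, for the 15 tested probe sets, with bars of 1 SE. Black circles are the fit of the group alone and open orange squares the fit that takes the control side as a block. Il1b moved from 2.03 to 1.21 and Il1rn 1423017_a_at from 1.87 to 0.91, whereas Casp1 (0.57 and 0.47) and Pycard 1417346_at (0.40 and 0.38) moved little.

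Ordered by fold change in the fit of the group alone, the genes ran Il1b, Il1a, Il1rn, Il1r2, Casp1, Il1rap, Pycard, Nlrp3 and Il18, and neighbours in this order lay closer together than the larger of their SEs, except Il1r2 and Casp1. With the side as a block the 4 leading genes lay at 1.21 (Il1b), 1.20 (Il1a), 0.99 (Il1r2) and 0.97 (Il1rn). Of the 15 tested probe sets, 12 were positive within both sides, against 25.7% of all probe sets. The exceptions were Nlrp3, Pycard 1417347_at and Il1rap 1442614_at. The block called 0 of 28254 probe sets (0%; limma), and the smallest adjusted p among the members was 0.556.

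**Figure D4:**
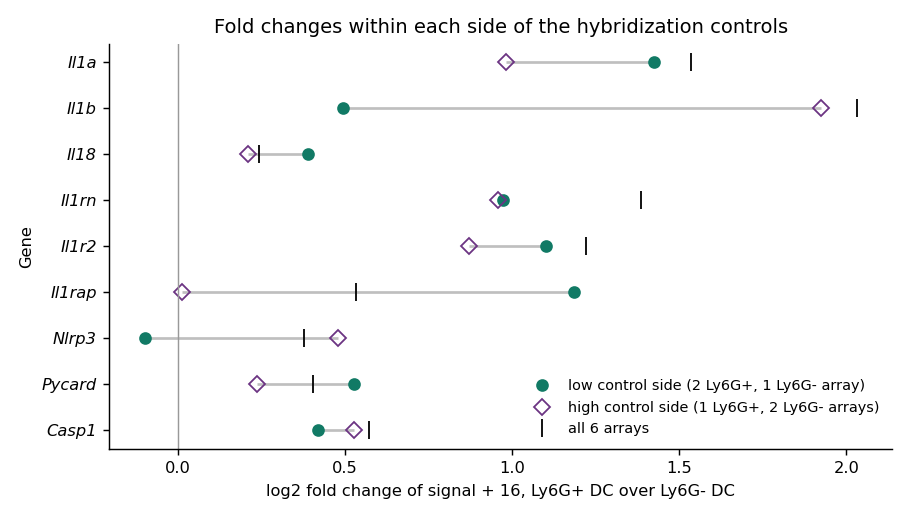
log2 fold change of signal + 16 for the 9 tested genes, computed within the low side (filled circles, 2 Ly6G+ arrays and 1 Ly6G- array), within the high side (open diamonds, 1 Ly6G+ array and 2 Ly6G- arrays) and over all 6 arrays (vertical ticks). Il1b shows 0.50 and 1.93 and Il1rap 1.18 and 0.01 on the low and high sides, whereas Il1rn shows 0.97 and 0.96.

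Across the 6 arrays, the log2 values of Il1a, Il1rn, Il1r2 and Casp1 varied together, as a description of arrays that share the sort and the control side. Pearson's r was 0.98 between Il1a and Il1r2, 0.97 between Il1a and Il1rn, 0.99 between Il1r2 and Casp1 and 0.97 between Il1rn and Il1r2. Il1b had 0.95 with Il1rn, 0.89 with Il1a and 0.86 with Il1r2. Nlrp3 had 0.68 with Il1b and 0.32 with Il1r2. Il1b also had -0.97 with the hybridization controls' mean log2 signal, Il1rn -0.86, Il1a -0.78, Casp1 -0.74, Il1r2 -0.73 and Nlrp3 -0.69, while Pycard had -0.33, Il18 0.10 and Il1rap 0.08.

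The genes most like Il1b over the 6 arrays, among 6832 genes whose mean lay above the 75th percentile, were Emb, Piga, Yipf5, Lonrf3 and Dap3, with Pearson's r of 0.995 to 0.997. Their log2 fold changes within the low side were 0.09 to 0.32 and within the high side 0.45 to 1.42. For Il1r2 they were Pag1, Clec4e, Ireb2, Mmgt1 and Mcemp1, with r of 0.988 to 0.995. Clec4e, a C-type lectin receptor of myeloid cells, had log2 fold changes of 1.42 within the low and 1.14 within the high side, near the values of Il1r2. With 6 arrays high correlations are common: 515 genes had an r above 0.9 with Il1b and 316 with Il1r2.

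The other genes of the pathway were taken from lists by role, and limma called 0 of their 141 tested probe sets. Of 75 tested genes, 49 had positive log2 fold changes, and the median was 0.12, against 44.3% positive and a median of -0.07 over all 13262 genes. Signals did not overlap for 16 genes that were higher and 3 that were lower in Ly6G+ DC, against 4.95% of all genes that were higher and 7.86% that were lower. Of the 16, 8 were on the list of interleukin 1 response genes. Serpinb1a, a protease inhibitor among the 16, passed the filter only through Ly6G+ arrays. The lists were chosen with earlier results of these data known, so these counts describe the lists and are no independent result.

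Among the IL-1 family ligands and binding proteins outside the members, 2 of 6 had positive values. Il1f9, which encodes interleukin 36 gamma, read 1318, 361 and 1664 on Ly6G+ DC 1, 2 and 3 and 319, 223 and 143 on Ly6G- DC 1, 2 and 3. It did not overlap between groups, and its log2 fold change was 2.02 ± 0.54 (SE; limma, unadjusted p = 0.00357, adjusted p = 0.836). Il18bp, a secreted inhibitor of interleukin 18, had -0.78 ± 0.42, and Il1f10 had -0.17 ± 0.36 (0.13 after scaling the arrays to equal medians). Within the sides Il18bp had -0.99 (low) and -1.14 (high), but its signals overlapped between groups, with 110 to 262 in Ly6G+ DC and 195 to 464 in Ly6G- DC.

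Among the receptors outside the members, 2 of 4 were positive. Il18r1, the ligand-binding chain of the interleukin 18 receptor, read 579, 775 and 692 on Ly6G+ DC 1, 2 and 3 and 1075, 870 and 1351 on Ly6G- DC 1, 2 and 3. Every Ly6G+ array was below every Ly6G- array, with a log2 fold change of -0.66 ± 0.30 (SE; limma, unadjusted p = 0.0484, adjusted p = 0.836). Il18rap, its partner chain, had 0.10 ± 0.29, and Il1rl2, the interleukin 36 receptor, had 0.36 ± 0.32.

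The genes that carry the signal from the receptor had a median log2 fold change of -0.03, with 9 of 19 positive, near that of all genes. After scaling the arrays to equal medians, which shifts all probe sets as given above, their median was 0.30 with 16 of 19 positive, and Tab2 and Myd88 were among those that turned positive. The brightest were Tab2, Ube2v1 and Rela, with -0.29 ± 0.41, -0.62 ± 0.35 and -0.43 ± 0.32 (SE). Myd88, the adaptor that the receptor shares with Toll-like receptors, had -0.03 ± 0.30. Irak3, a kinase-like inhibitor of this signal named after its value was seen, had 1.10 ± 0.40 and was the only gene of that list with an unadjusted p under 0.05 (0.0196; limma, adjusted p = 0.836).

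The list of inflammasome sensors other than Nlrp3 had 4 of 7 positive values and a median of 0.40. This list also took in Nod1, which is not an established inflammasome sensor and counts in that median. The values ran from -0.91 to 1.57, the highest being that of Nod1. Naip2, Naip5 and Naip6, which recognise bacterial flagellin and secretion proteins, had log2 fold changes of 0.55 ± 0.29, 0.40 ± 0.33 and -0.25 ± 0.29 (SE), and that of Naip6 turned to 0.07 after scaling the arrays to equal medians. The Naip genes are close relatives, and cross-hybridization between them was not tested. Nod1, a sensor of bacterial cell wall fragments named after its value was seen, read 260, 148 and 211 on Ly6G+ DC 1, 2 and 3 and 79.4, 129 and 12.3 on Ly6G- DC 1, 2 and 3. Its groups did not overlap, although Ly6G+ DC 2 lay close to Ly6G- DC 2, and its log2 fold change was 1.57 ± 0.58 (SE; limma, unadjusted p = 0.0213, adjusted p = 0.836). Regulators and effectors had 12 of 14 positive values but a median of 0.15, with Txnip, Ninj1 and Sugt1 at 0.06 ± 0.35, 0.23 ± 0.32 and 0.06 ± 0.32. Gsdmd, the pore through which interleukin 1 beta leaves the cell, had 0.12 ± 0.47.

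Proteases that can cleave interleukin 1 outside the inflammasome, and their inhibitors, had 5 of 7 positive values and a median of 0.08. Mmp9, which is also a neutrophil granule protein, read 2558, 1993 and 4757 on Ly6G+ DC 1, 2 and 3 and 164, 748 and 257 on Ly6G- DC 1, 2 and 3. Its log2 fold change was 3.12 ± 0.52 (SE; limma, unadjusted p = 1.28e-04, adjusted p = 0.276). Capn2, a calpain of the family that processes interleukin 1 alpha, had 0.06 ± 0.30 and Serpinb9 had -0.53 ± 0.32.

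Genes known to respond to interleukin 1, chosen with earlier results of these data known, had the highest median of the pathway lists, 0.97, with 15 of 18 positive, against 44.3% of all genes. Of the 18, 8 did not overlap as higher in Ly6G+ DC, against 4.95% of all genes. The neutrophil attractant Cxcl2 read 16377, 18300 and 19684 on Ly6G+ DC 1, 2 and 3 and 8298, 6828 and 3926 on Ly6G- DC 1, 2 and 3, with a log2 fold change of 1.57 ± 0.38 (SE; limma, unadjusted p = 0.00179, adjusted p = 0.782). The brightest gene, Nfkbia, an NF-kB inhibitor, had -0.70 ± 0.57, and Icam1, an adhesion molecule, had -0.59 ± 0.34. This list shares Lcn2 with the neutrophil markers. These genes also respond to other stimuli, and interleukin 1 itself was not measured as a protein.

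**Figure D5:**
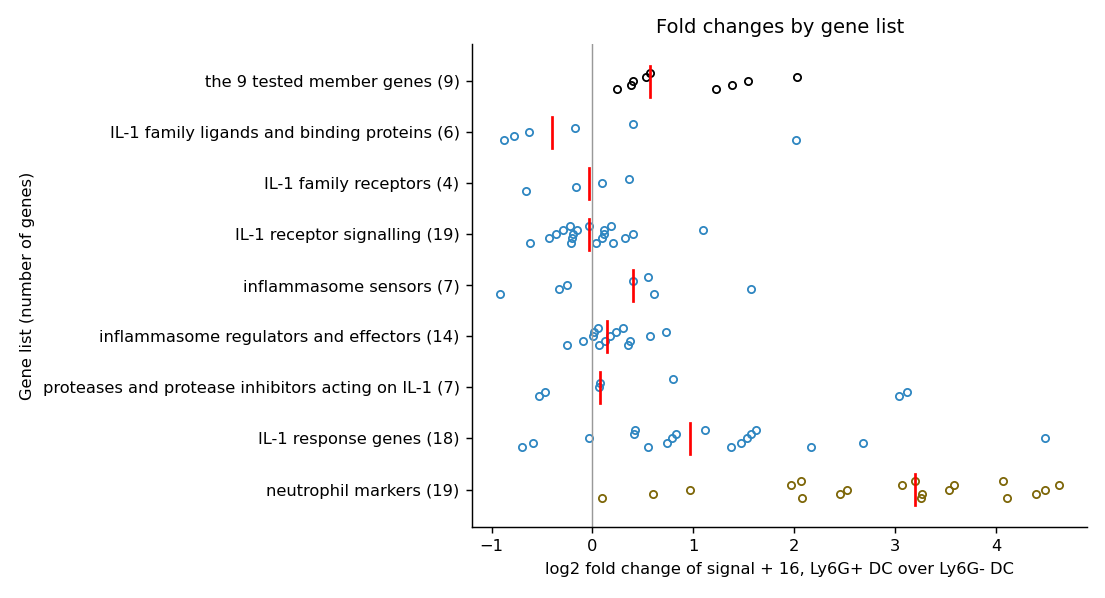
log2 fold change of signal + 16, Ly6G+ DC over Ly6G- DC, of each tested gene (open circles) by list, with the number of genes in brackets and the median as a red bar. The medians are 0.57 for the 9 member genes, 0.97 for interleukin 1 response genes, -0.03 for receptor signalling and 3.20 for the neutrophil markers, which lie farthest to the right.

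Markers of neutrophils had higher values in Ly6G+ DC, as Il1a, Il1b, Il1rn and Il1r2 did on average. The markers did not all order the arrays alike. Among the Ly6G- arrays most markers, S100a8 included, were highest on Ly6G- DC 2. Trem1 read 561, 370 and 262 on Ly6G- DC 1, 2 and 3 and was highest on Ly6G- DC 1, as Il1b was. Whether the markers and the interleukin 1 genes vary together was not tested. Of 19 tested neutrophil markers 19 had positive log2 fold changes and 17 did not overlap between groups, with a median of 3.20. Among these markers Lrg1, Cxcr2 and Cd177 passed the filter only through Ly6G+ arrays. Their positive sign and lack of overlap follow largely from how they passed, and the counts and the median include them. Over all genes 44.3% were positive, which also applies to each marker list below, and 4.95% did not overlap as higher. The summed signal of the neutrophil markers was 88984 to 116670 on the Ly6G+ arrays and 12132 to 29838 on the Ly6G- arrays. S100a8, a subunit of calprotectin, read 22222, 24449 and 30299 on Ly6G+ DC 1, 2 and 3 and 2434, 4628 and 925 on Ly6G- DC 1, 2 and 3. Csf3r, the G-CSF receptor, read 1127, 419 and 981 and, in Ly6G- DC, 129, 271 and 56.6. Monocyte markers had 8 of 9 positive values and a median of 1.06, and their summed signals were 29017 to 44740 and 10825 to 35926. Macrophage markers had 8 of 13 positive and a median of 0.19, and dendritic cell markers 1 of 20 positive and a median of -0.76. Of these 20 dendritic cell markers, 11 did not overlap and were lower in Ly6G+ DC, against 7.86% of all genes, and 9 were lower at an unadjusted p under 0.05 by limma, against 3.19% of all genes. Their summed signals, 98789 to 190800 in Ly6G+ DC and 157440 to 355950 in Ly6G- DC, overlapped. Mast cell, basophil and eosinophil markers had 5 of 8 positive and a median of 0.70, T and NK lymphocyte markers 0 of 4 and -0.80, and B lymphocyte markers 1 of 7 and -0.18 (4 of 7 and 0.02 after quantile normalization). The T cell genes Cd3d, Cd3e, Cd3g and Cd4 and the mast cell genes Fcer1a, Ms4a2 and Mcpt4 were too dim to be tested. Within the sides the neutrophil median was 3.23 (low) and 2.79 (high). The part of these other cell types in the values of the interleukin 1 genes was not tested.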

How the data were processed

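The deposited values are linear MAS5 signal intensities, 1 per probe set, made with Affymetrix Expression Console 2.0, MAS5 and GCOS per the submitters' processing notes. The trimmed mean (2% at either end) was 250.0 on each array in the deposited intensities, so the authors scaled to it. A few very bright probe sets can therefore move the rest of an array, and MAS5 signals of dim probe sets are noisy.

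Signals were analysed as log2(signal + 16). Control probe sets were left out, and a probe set was tested when 3 or more of the 6 arrays had it above their own 40th percentile, in any group, which left 28254 of 45101, among them 15 of the 19 member probe sets. The test was limma's moderated test (version 3.58.1, R 4.3.3; lmFit and eBayes, trend on intensity) with the group as the only term and Benjamini-Hochberg adjustment over all probe sets tested, at a threshold of 0.05. The script was tested on simulated data. A gene was represented by its brightest tested probe set. Symbols came from the platform annotation, which gave 1 symbol to 34958 probe sets, several to 932 and none to 9211. All 10 members matched the RefSeq promoter table (GRCm38.p6), whose sequences are printed. With 3 arrays a group, their number limits the precision.

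The 18 hybridization control probe sets were averaged per array on the log2 scale, and the arrays were divided where this average left its widest gap. The members, gene lists and alternatives were chosen with earlier results of these data known. The rule for named genes took all members, the 3 brightest genes of each pathway list, any gene with an adjusted p under 0.05 (0 genes), S100a8 and Csf3r, and the 5 genes most correlated with Il1b and with Il1r2. Myd88, Gsdmd, Irak3, Nod1, Serpinb1a, Trem1, Lrg1, Cxcr2, Cd177, the genes named as too dim and the TATA motif were added after their values were seen.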

Additional observations from a re-analysis of the deposited data

How the results depend on the processing

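The log2 fold changes of the 9 tested member genes, each by its brightest tested probe set, kept their positive sign under all 17 alternatives. None passed the threshold of limma. Their ranges were 1.20 to 1.94 for Il1a, 1.21 to 3.09 for Il1b, 0.96 to 1.81 for Il1rn, 0.95 to 1.55 for Il1r2, 0.44 to 0.90 for Casp1, 0.24 to 0.73 for Pycard, 0.16 to 0.56 for Il18, 0.18 to 0.84 for Il1rap and 0.001 to 0.70 for Nlrp3. The comparisons within sides are not among these alternatives, and Nlrp3 had -0.10 within the low side. The dimmer probe sets Pycard 1417347_at and Il1rap 1442614_at were negative in the main fit. Median scaling moved the median of all probe sets from -0.06 to 0.23 and that of the member probe sets from 0.53 to 0.84, and split the probe sets with an unadjusted p under 0.05 into 1775 higher and 239 lower, against 778 and 811 with the authors' scaling and 912 and 543 after quantile normalization. With the replicate block, limma called 19 probe sets in all, 3 of the pathway lists and 0 of the members, whose smallest adjusted p was 0.202. The groups share these numbers, and deviations from the group means correlated by 0.52, 0.26 and -0.04 for numbers 1, 2 and 3. The arrays numbered 3 lie on different control sides, whereas those numbered 1 share a side, as do those numbered 2. Across numbers but on 1 side, Ly6G+ DC 2 and Ly6G- DC 3 had 0.32, and Ly6G+ DC 3 and Ly6G- DC 1 had -0.02. Number and side are mixed in these correlations, so they cannot decide whether the numbers pair the samples. The main fit used no pairs. With the array name in the titles as a block limma called 21, 4 and 0. Leaving out 1 array in turn gave 0 to 1 calls in all, the 1 call coming without Ly6G- DC 2, and 0 for the pathway lists and the members. The count of 5 member probe sets that did not overlap (against 4.49% of all probe sets that were higher) was 12 within the low (29.5%) and 11 within the high control side (32.2%), where 2 arrays face 1, 7 after quantile normalization (5.54%) and 8 after median scaling (9.66%). It was 5 to 8 with 1 array left out (6.77% to 14.1%), 8 when that array was Ly6G- DC 1 (14.1%), Ly6G+ DC 2 (9.05%) or Ly6G- DC 2 (8.56%); fewer arrays make separation easier. The comparisons within sides and the non-overlap counts were chosen after seeing the data.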
